A study of Arabidopsis thaliana with 18 samples.

Results

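The comparison set 3 leaf arrays of Arabidopsis thaliana treated with MEA, the methanol extract of a brown alga, Ascophyllum nodosum, against 3 arrays of the salt reference, all sampled on day 5. These are 6 of the 18 arrays of the study, chosen by the labels alone: the title names MEA with NaCl, and the source name of the reference gives NaCl only. All plants were 2 weeks old and had first spent 24 hours in 150 mM NaCl, so the reference is a salt-treated group as well. It then received 0.1% aqueous methanol in place of the extract. The series also holds both groups on day 1 and an ethyl acetate sub-fraction of the extract (EAA) on both days, with 3 arrays each. No group without salt enters the comparison, which therefore asks what the extract adds to plants that had met salt. The title and description of the reference arrays name EAA and no NaCl, against their source name, and every difference below rests on the source name. By their titles the 3 arrays of each group are biological replicates. Separate growth of the plants is not stated, so p-values measure the spread between these samples only.

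Leaves under salt are known to build up abscisic acid (ABA), the hormone that turns on protective late embryogenesis abundant (LEA) proteins and dehydrins, and to slow chlorophyll synthesis and cell expansion. Sugars made in the leaf are stored as starch or moved out through carriers such as the SWEET family. Extracts of A. nodosum are used in farming as biostimulants, and their polar fractions are studied for protection against salt and freezing.

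MEA replicate 2 stood apart from MEA replicates 1 and 3 across the array, and this is given before any gene. Each array was placed on an axis running from the mean of the EAA arrays of day 1, at 0, to the mean of the EAA arrays of day 5, at 1, over the 5709 probe sets that differed between those days; none of these arrays belongs to the comparison. MEA replicates 1 and 3 lay at 0.115 and 0.019, within or near the range of the day 1 arrays of MEA and the reference, -0.037 to 0.052. MEA replicate 2 lay at 1.04, beyond the reference arrays of day 5, which lay at 0.946, 0.726 and 0.885. In MEA replicate 1 75.5% of those probe sets were nearer to day 1 than to day 5, in replicate 2 9.93% and in replicate 3 85.6%, against 7.32% to 29.9% in the reference arrays. On this axis the 2 arrays labelled MEA day 5 replicates 1 and 3 thus lay near day 1, which goes against their label, and the labels do not say why. They were not the same as day 1 arrays: by mean absolute distance over all probe sets tested they lay 0.30 to 0.356 from the means of the day 1 groups, while the day 1 arrays lay 0.146 to 0.216 from them, each array left out of its own group's mean. Single genes could be far from day 1, as with COR27, a cold-induced clock repressor, at 5.61 and 5.82 against 8.84 ± 0.18 with MEA on day 1 (SD, n = 3). The median SD over the 13648 probe sets tested was 0.337 in the MEA group and 0.183 in the reference, and arrays of the MEA group correlated at 0.836 to 0.964 across probe sets.

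**Figure D1:**
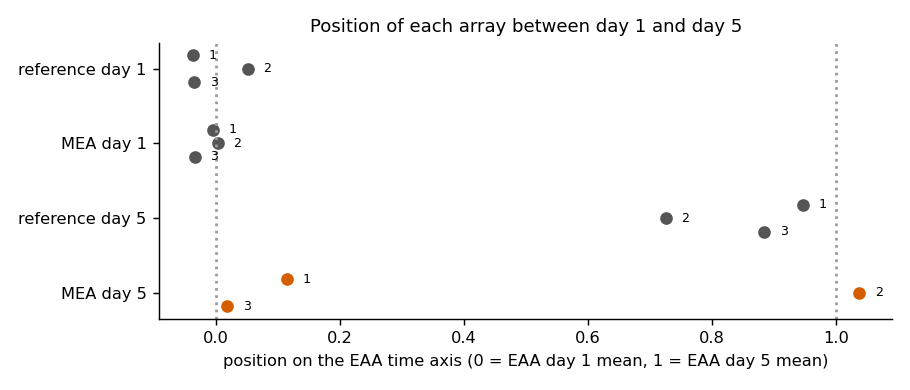
Position of each array of MEA and the reference on an axis fitted to the EAA arrays (horizontal axis, 0 is the mean of EAA day 1 and 1 the mean of EAA day 5, no unit); each point is 1 array with its replicate number, and rows are groups. MEA day 5 replicates 1 and 3, at 0.115 and 0.019, sit with the day 1 arrays, and replicate 2, at 1.04, sits with day 5.

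RNA quality moved with the same split in part. Control probe sets at the 3' and 5' ends of actin differed by 2.88, 1.56 and 2.30 on the log2 scale in MEA replicates 1, 2 and 3, and by 1.72 to 1.84 in the reference. Replicate 1 was above every reference array in 5 of 5 such control pairs, replicate 3 in 4 and replicate 2 in 0; the part of this in the results was not tested. The leaf label held: RCA (Rubisco activase) read 13.6, 13.8 and 13.6 with MEA, and the root hair expansins EXPA7 and EXPA18 read at most 3.53 and 3.95 in any of the 18 arrays, under the value of 4.006 below which a mean signal was filtered out. In whole leaves fewer cells of a type and less RNA per cell cannot be told apart.

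Over all probe sets the 2 groups could not be separated by the test. With limma on the 6 arrays 0 of 13648 probe sets (0.0%) passed an adjusted p of 0.05 (Benjamini-Hochberg, smallest 0.302), while 1617 had an unadjusted p under 0.05, where 682.4 would be expected from even p-values. All MEA arrays lay above all reference arrays in 995 probe sets (7.29%) and below them in 1269 (9.3%), together 2264 (16.6%). The share of these that were above was 43.9% as deposited, 53.7% after centring each array on its median and 52.4% after quantile normalization, so no direction is read from it. Without MEA replicate 2, 2898 probe sets (21.2%) passed, and without MEA replicate 1 or 3 the count was 0. Fits without replicate 2 rest on 2 arrays whose likeness was known beforehand, so they describe those arrays. Of those 2898, 2288 (79.0%) also differed between the days with EAA, and in replicate 2 1409 (48.6%) lay on the same side of the reference. A fit to all 18 arrays that gave each group a weight by its spread called 159 probe sets (1.17%). With MEA 78 were higher (0.572%) and 81 lower (0.593%), and 144 of the 159 had groups that did not overlap. Of the 159, 148 (93.1%) also differed between the days with EAA. Among the 78 higher with MEA, 77 were lower on day 5 with EAA. Among the 81 lower with MEA, 71 were higher on day 5 with EAA.

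The probe sets that changed with time under EAA show the split most directly. Among the 2541 (18.6%) that were higher on day 5 with EAA, the median difference from the reference mean was -0.68 in MEA replicate 1, 0.12 in replicate 2 and -0.83 in replicate 3. For the 3168 (23.2%) that were lower on day 5 it was 0.51, -0.15 and 0.65. Over the 7939 that did not pass it was -0.09, 0.02 and -0.09. In replicates 1 and 3 genes that went up between the days were thus low and genes that went down were high, and replicate 2 showed neither. Size followed the same order: 2014 probe sets (14.8%) lay at least 2-fold from the reference mean in replicate 1, 828 (6.07%) in replicate 2 and 2232 (16.4%) in replicate 3. All 3 arrays were at least 2-fold above it in 17 (0.125%) and at least 2-fold below it in 67 (0.491%).

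In 8 of the 10 genes with the highest mean differences MEA replicates 1 and 3 stood far above the reference and replicate 2 did not; each array is given apart, in the order of replicates 1, 2 and 3. Signals are log2 values as deposited. PORB (AT4G27440), which makes chlorophyllide in the light, read 10.6, 5.88 and 11.2 with MEA and 5.42, 7.15 and 5.53 in the reference. Replicates 1 and 3 were nearer to MEA on day 1 (11.6 ± 0.04, SD, n = 3) than to the reference, though below every MEA array of day 1. Replicate 2 was within the reference range. The mean difference was 3.18 (SE 1.39, adjusted p = 0.431 by limma), which did not pass. Another chlorophyll gene, CHLI2, a subunit of magnesium chelatase, read 6.38, 5.38 and 7.58 against 5.74, 6.32 and 5.54, and HEMB1, an early enzyme of the pathway, read 8.35, 7.98 and 8.69 against 8.95, 8.46 and 8.66. The 3 genes did not share a pattern, and their groups overlapped. The light-harvesting gene LHCB4.1 read 12.96, 12.2 and 13.2 against 12.4, 12.6 and 12.1, with replicate 2 inside the reference range. Over the 7 measured nuclear genes of photosystems, light harvesting and the Rubisco small subunit, the medians of the 3 arrays were 0.47, -0.39 and 0.50. Over all probe sets tested they were -0.07, 0.00 and -0.06. Of the 7 genes 0 had groups that did not overlap, beside 16.6% over all probe sets.

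Of the genes with the highest mean differences, DPE1, BGLU44, TUB5 and WLIM2a had replicates 1 and 3 far above the reference, as PORB did. DPE1 (AT5G64860), the plastid enzyme that recycles short glucans when starch breaks down, read 7.51, 4.41 and 7.98 with MEA and 4.48, 4.57 and 4.41 in the reference. Here replicate 2 was at about the level of the lowest reference array, and the mean difference was 2.15 (SE 0.89, adjusted p = 0.42 by limma on 6 arrays and 0.0422 in the weighted fit). BGLU44 (AT3G18080), a beta-glucosidase gene, read 10.8, 6.0 and 11.2 against 6.33, 7.45 and 6.92. TMT1, a carrier that loads sugars into the vacuole, read 7.49, 4.51 and 7.99 against 4.58, 5.36 and 5.33. In both, replicate 2 was below the lowest reference array while replicates 1 and 3 were above the highest. TUB5 (AT1G20010), a beta-tubulin, read 8.25, 2.91 and 9.06 against 3.90, 5.07 and 4.13, and WLIM2a, an actin-bundling LIM protein, read 6.74, 4.03 and 7.81 against 4.05, 4.16 and 3.95. For TUB5 a fit to 16 of the 18 arrays, with replicate 2 as the only MEA array of day 5, put that array -1.46 from the reference (SE 0.36, adjusted p = 0.0246 by limma), the opposite direction to replicates 1 and 3. ACA.l (AT1G13210) read 8.17, 4.82 and 7.97 against 5.02, 5.10 and 5.24. Replicate 2 of that gene lay just under the reference.

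PDC2 (AT5G54960), a pyruvate decarboxylase that opens ethanol fermentation, was a gene of this kind whose groups did not overlap: it read 9.56, 7.68 and 9.32 with MEA and 7.46, 7.15 and 7.26 in the reference. Replicate 2 exceeded the highest reference array by a small margin. PDC2 passed the weighted fit (mean difference 1.56, adjusted p = 0.033) and did not pass on 6 arrays (adjusted p = 0.38, limma). The clock genes GI and COR27 were the 2 measured of their list. GI, which links the clock to flowering and salt tolerance, read 8.89, 6.51 and 8.90 against 7.21, 6.47 and 7.32, and COR27 read 5.61, 3.51 and 5.82 against 3.78, 3.76 and 4.40. In both, replicates 1 and 3 stood above every reference array and replicate 2 did not. Auxin repressor IAA29 had the same shape, at 5.31, 3.84 and 5.80 against 3.75, 4.15 and 3.62. The reference means of COR27 and IAA29 were under 4.006, so the sizes of their differences are uncertain.

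**Figure D2:**
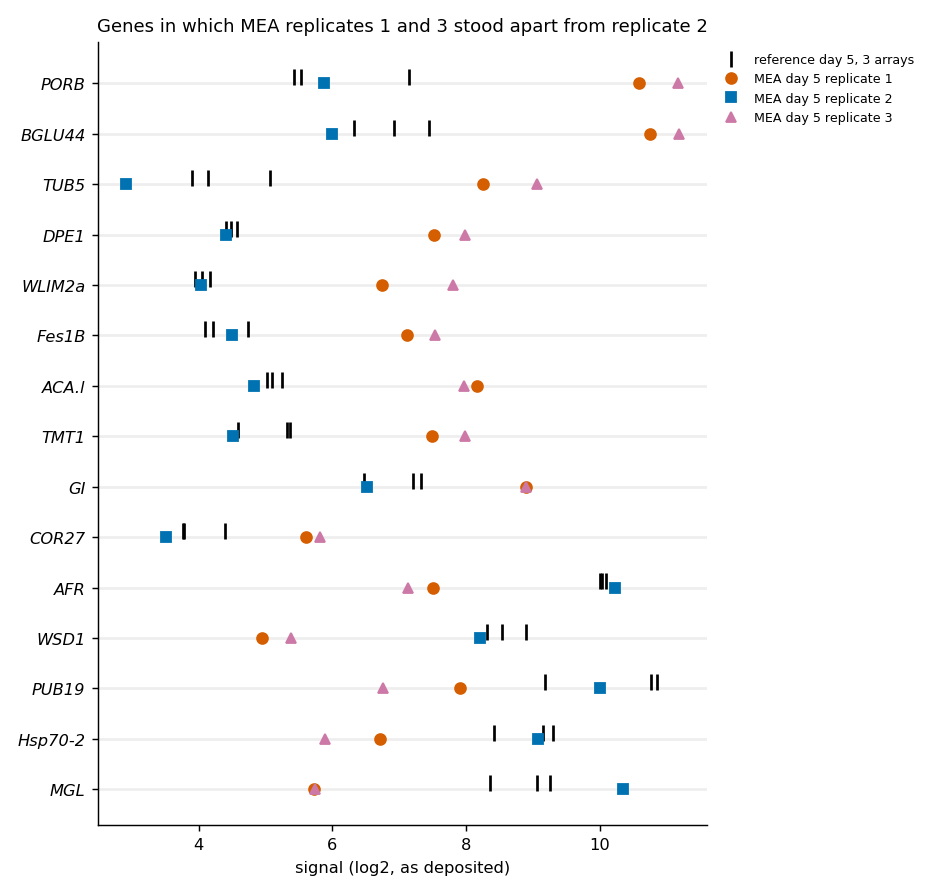
Signal (log2, horizontal axis) of 15 genes on day 5; black ticks are the 3 reference arrays and coloured symbols the 3 MEA arrays. In every row replicates 1 and 3 lie on the same side, away from the reference, as with PORB at 10.6 and 11.2, and replicate 2 lies in or near the reference range or beyond its other end, as with MGL.

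In 6 of the 10 genes with the lowest mean differences, WSD1, PUB19, AFR, Hsp70-2, SWEET11 and MGL, replicates 1 and 3 lay at least 2 below the reference mean and replicate 2 less than 0.5 below it or above it. The others, ASPGB1, XTH19, CML38 and PPR596, did not show this split. WSD1 (AT5G37300), a wax ester synthase, read 4.95, 8.21 and 5.39 with MEA and 8.54, 8.31 and 8.89 in the reference, and all 3 MEA arrays were lower. The mean difference was -2.40 (SE 0.82, adjusted p = 0.387 by limma), of which replicate 2 showed -0.37. AFR, an F-box protein of far-red light signalling, read 7.50, 10.2 and 7.13 against 10.04, 10.01 and 10.1, and PUB19, a U-box ubiquitin ligase of ABA and drought responses, read 7.91, 10.01 and 6.76 against 10.8, 9.18 and 10.9. Replicate 2 lay above all reference arrays for AFR and inside their range for PUB19. MGL, methionine gamma-lyase, read 5.73, 10.3 and 5.74 against 9.26, 8.36 and 9.06. Replicates 1 and 3 were below and replicate 2 above the reference, by 1.45 in the 16-array fit (SE 0.35, adjusted p = 0.0236, limma). APL3, a large subunit of ADP-glucose pyrophosphorylase in starch synthesis, read 6.20, 8.93 and 6.69 against 8.84, 7.84 and 8.68, and NDB2, an alternative mitochondrial NADH dehydrogenase, read 7.36, 8.44 and 6.95 against 9.38, 8.22 and 9.25. Neither gene had MEA and reference groups apart.

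Of the 11 measured chaperone and heat shock genes 1 had groups apart, beside 16.6% over all probe sets. This was Cpn60beta2, a plastid chaperonin subunit, at 6.52, 8.59 and 7.83 against 8.71, 9.23 and 9.24. The medians of the list were -1.33, 0.13 and -0.65 in replicates 1, 2 and 3. Cytosolic Hsp70-2 read 6.71, 9.08 and 5.89 against 9.31, 8.41 and 9.16, and the Hsp70 exchange factor Fes1A read 5.77, 7.73 and 5.26 against 8.58, 6.70 and 8.24. Hop3, which couples Hsp70 to Hsp90, read 3.05, 5.90 and 3.09 against 6.11, 3.89 and 5.37. Replicates 1 and 3 were the lowest of the 6 arrays in these 3 genes. The relative Fes1B went the other way, at 7.12, 4.50 and 7.54 against 4.22, 4.74 and 4.09, and passed the weighted fit at adjusted p = 0.0496. Fes1A and Hop3 were chosen after their values were seen.

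A smaller set of genes put all 3 MEA arrays, replicate 2 included, on 1 side of the reference. None passed the test on 6 arrays. Among the 1038 genes with a symbol, 66 (6.36%) were above and 82 (7.90%) below, near the shares over all probe sets. Both shares differed with the change between days under EAA. Of the 2541 probe sets higher on day 5 with EAA, 463 (18.2%) were below the reference and 8 (0.315%) above. Of the 3168 lower on day 5, 527 (16.6%) were above and 32 (1.01%) below. Of the 7939 that did not pass, 460 (5.79%) were above and 774 (9.75%) below. Of 11 measured genes of sugar transport and sucrose metabolism 4 were below and 1 was above, beside 9.3% and 7.29% over all probe sets. SWEET2 (AT3G14770), a vacuolar sugar carrier, read 4.19, 4.66 and 4.69 with MEA and 5.58, 6.30 and 5.80 in the reference. Every MEA array was lower, at -1.71, -1.23 and -1.21 from the reference mean, and the mean difference was -1.38 (SE 0.25, adjusted p = 0.333 by limma). SWEET11, which releases sucrose for loading into the phloem, read 9.23, 11.4 and 9.64 against 11.6, 11.9 and 11.8. SWEET13 read 6.59, 8.10 and 7.64 against 8.29, 8.48 and 8.62. In both sucrose carriers replicate 2 was nearest to the reference. With EAA on day 5 SWEET11 read 10.8, 11.3 and 11.1 and SWEET13 7.43, 7.77 and 7.58, also below every reference array. SWEET2 overlapped the reference with EAA, at 4.87, 5.28 and 5.97. With MEA the sugar transporter-like gene SFP2 differed from the reference mean by -0.89, -0.29 and -0.87 in the 3 arrays. Its replicate 2 and the lowest reference array both read 5.59 after rounding, so the groups of SFP2 were barely apart. SWEET17, a vacuolar fructose carrier, was the exception above, at 7.79, 8.24 and 7.85 against 7.48, 7.71 and 7.12. SWEET1, a glucose carrier, split by array, at 6.23, 9.11 and 6.31 against 8.28, 8.37 and 7.90, with replicate 2 highest. TMT2, a relative of TMT1, was above every reference array in replicates 2 and 3 but not 1, at 7.66, 8.35 and 8.23 against 7.75, 7.52 and 7.46. List medians were -0.79, -0.29 and -0.83; SWEET1, SWEET13, SWEET17, TMT1 and TMT2 are named from this list after their values were seen.

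Nitrogen turnover gave the lowest mean difference of a named gene: ASPGB1 (AT3G16150), an asparaginase that frees ammonium from asparagine, read 4.95, 5.58 and 4.72 with MEA and 7.79, 6.40 and 8.36 in the reference. On day 1 MEA stood at 4.72 ± 0.27 (SD, n = 3), and of the day 5 arrays replicate 2 was nearest to the reference. Its mean difference was -2.43 (SE 0.52, adjusted p = 0.343, limma). With EAA on day 5 ASPGB1 read 8.71, 5.60 and 5.97, which overlapped the reference. PPR596 (AT1G80270), a pentatricopeptide repeat protein that acts on mitochondrial RNA, read 4.80, 5.16 and 4.70 against 5.91, 6.57 and 7.14. With EAA on day 5 PPR596 read 5.79, 5.59 and 5.48, also below every reference array. This gene was lower with MEA in every array, at -1.75, -1.39 and -1.85 from the reference mean, passed the weighted fit (adjusted p = 0.0464) and passed for replicate 2 alone (adjusted p = 0.0237, limma). CCL (AT3G26740), whose transcript is known for clock-controlled decay, read 12.5, 11.9 and 12.3 against 10.8, 11.2 and 10.9. With EAA on day 5 CCL overlapped the reference, at 10.96, 11.5 and 10.9. It was higher with MEA by 1.26 (SE 0.23) with adjusted p = 0.333 on 6 arrays, 0.0385 in the weighted fit and 0.0327 for replicate 2 alone, all by limma; it was chosen after its values were seen.

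The cell wall genes with the largest mean differences were low. XTH19 (AT4G30290), an enzyme that cuts and rejoins xyloglucan, read 4.31, 3.06 and 3.92 with MEA and 6.92, 4.82 and 6.72 in the reference, lowest in replicate 2. The expansin gene EXPA16 read 4.35, 3.77 and 5.06 against 5.51, 5.37 and 5.82. In the 16-array fit replicate 2 fell below the reference, at -3.09 for XTH19 and -1.80 for EXPA16. Both were among the genes picked for low values in replicate 2, so these differences are a description. The MEA mean of XTH19 was under 4.006, and reference replicate 2, at 4.82, was well under the other reference arrays. Of 12 measured xyloglucan enzymes and expansins these 2 had groups apart, about the 16.6% over all probe sets, and the medians were -0.46, -0.85 and 0.11. TBL41, of the family that acetylates wall polysaccharides, differed from the reference mean by -0.47, -0.63 and -1.03. Of the 28 measured genes for cellulose synthases and other wall polysaccharides 3 were below and 1 above, also near that share.

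Hormone genes stood on both sides of the reference. GH3.3 (AT2G23170), which ties auxin to amino acids, read 6.60, 5.58 and 4.70 with MEA and 3.77, 3.43 and 4.38 in the reference, with a reference mean under 4.006. IAGLU (AT4G15550), which glucosylates auxin, read 6.74, 6.84 and 6.27 against 7.64, 7.59 and 7.59. All MEA arrays were higher for the first and lower for the second. Their mean differences were 1.77 (SE 0.50, adjusted p = 0.365) and -0.99 (SE 0.20, adjusted p = 0.333, limma). With EAA on day 5 GH3.3 read 5.26, 4.98 and 5.62, also above every reference array. IAGLU read 7.07, 7.59 and 7.38 with EAA, below the reference by a narrow margin. The gibberellin receptor gene GID1A read 7.06, 6.31 and 6.51 against 5.69, 6.08 and 5.36, all MEA arrays higher. JMT, which methylates jasmonate, read 4.19, 3.24 and 3.61 against 4.78, 4.66 and 4.73, all MEA arrays lower. For JMT replicate 2 lay -1.48 from the reference mean. With EAA on day 5 JMT read 4.24, 4.58 and 4.32, also below every reference array. The MEA mean of JMT, 3.68, was under 4.006, so the size of its difference is uncertain. TINY2, a DREB-type transcription factor, read 4.93, 5.0 and 5.28 with MEA against 5.47, 6.20 and 5.88. With EAA both GID1A and TINY2 overlapped the reference.

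Of 15 listed regulators of trichome formation 2 were measured, TRY and GIS. Both were lower in all MEA arrays, beside 9.3% over all probe sets, and 2 genes are too few to read as a theme. TRY, a MYB inhibitor, read 5.34, 4.02 and 5.20 against 5.86, 6.79 and 6.02, and GIS, a zinc finger regulator, read 5.78, 7.84 and 6.33 against 8.05, 8.45 and 8.13. The order of the arrays differed between them: replicate 2 was lowest for TRY and highest for GIS. With EAA on day 5 TRY read 4.13, 5.16 and 5.60, also below every reference array. GIS read 7.51, 7.62 and 8.09 with EAA, which overlapped the reference. HYH, a bZIP factor of light signalling, read 4.95, 5.50 and 4.56 against 6.03, 6.25 and 5.81. The calcium sensor CML30 read 4.11, 4.76 and 4.21 against 4.83, 5.55 and 5.54, and its relative CML38 5.83, 4.08 and 4.67 against 7.86, 4.81 and 7.50. For CML38 reference replicate 2 was far below the other reference arrays, and the groups overlapped.

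Enzymes that add sugars or release them, and enzymes of lignin, had smaller differences. BGLU40 read 7.69, 8.11 and 7.45 against 9.08, 8.59 and 8.66, and HCT, an acyltransferase of the lignin path, read 9.74, 9.80 and 9.49 against 10.2, 10.2 and 10.4. UGT74D1, which glucosylates auxin metabolites, read 7.05, 7.59 and 7.15 against 8.16, 7.91 and 8.09. All 3 genes were lower in every MEA array. UGT85A2 read 6.87, 6.29 and 6.24 against 5.19, 5.86 and 5.43, and UGT80B1, a sterol glucosyltransferase, 6.99, 5.86 and 6.97 against 5.80, 5.38 and 5.64, both higher. Of 27 measured UDP-glycosyltransferase genes 3 were above and 3 below, near the 7.29% and 9.3% over all probe sets. SCPL49, a serine carboxypeptidase-like gene, read 8.33, 8.16 and 8.53 against 7.51, 7.49 and 7.23. It was 1 of 13 in its family with groups apart, beside 16.6% over all probe sets. The ubiquitin ligase gene PUB26 read 5.47, 5.56 and 5.16 against 5.88, 6.32 and 6.15, 1 of 4 below among 18 measured genes of ubiquitin ligation, with 1 above (9.3% and 7.29% over all probe sets). ATG8F, 1 of 9 measured genes for the autophagy protein ATG8, read 10.4, 10.3 and 10.2 against 9.96, 10.1 and 9.85. With EAA on day 5 SCPL49 read 7.99, 8.18 and 7.62, also above every reference array. HCT, at 10.1, 10.1 and 10.1, and PUB26, at 5.80, 5.74 and 5.79, were also below every reference array with EAA. BGLU40, UGT74D1, UGT85A2, UGT80B1 and ATG8F overlapped the reference with EAA.

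**Figure D3:**
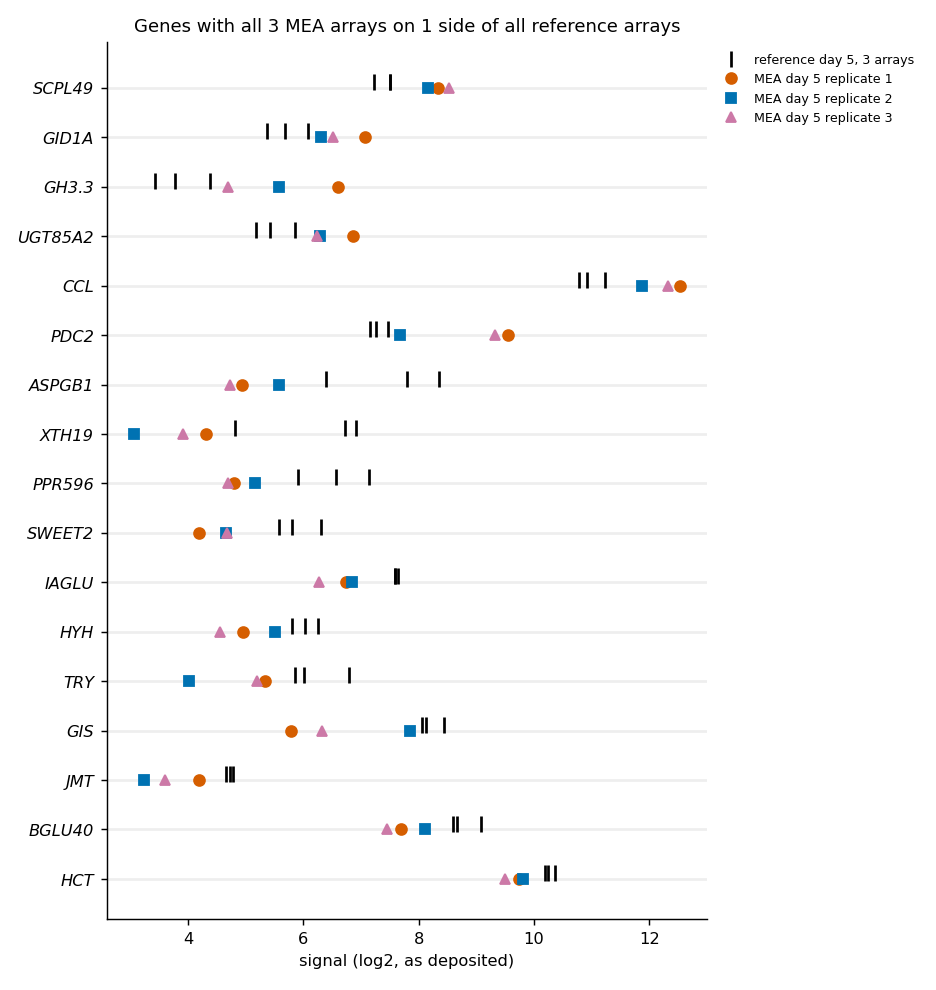
Signal (log2, horizontal axis) of 17 genes on day 5; black ticks are the 3 reference arrays and coloured symbols the 3 MEA arrays. The first 6 genes, SCPL49 to PDC2, lie above the reference in all MEA arrays and the other 11 lie below it. None passed the test on 6 arrays. The first 6 were all lower on day 5 than on day 1 with EAA. Most of the other 11 were higher, all but PPR596, TRY, JMT and BGLU40.

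The plastid genome gave small differences. Of 69 measured chloroplast-encoded genes 5 were above, which is the share over all probe sets (7.29%), and 1 was below (9.3% over all). The medians of the 3 arrays were 0.31, -0.03 and 0.23. Those above were petG, psbB, atpI, psbC and psbT, which encode parts of the cytochrome complex, photosystem II and the ATP synthase. For psbC the arrays differed from the reference mean by 0.62, 0.43 and 0.54. The 1 below was rbcL, the large subunit of Rubisco, at 10.6, 10.5 and 10.6 against 10.9, 11.05 and 10.9. With EAA on day 5 rbcL read 10.6, 10.5 and 10.4, also below every reference array. RCA was also below with MEA, at -0.33, -0.09 and -0.32 from the reference mean, and overlapped the reference with EAA. Per the labels' protocols labelling started from poly(A), of which plastid transcripts are known to carry little. The genes psbC, atpI and psbT were chosen after their values were seen.

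MEA replicate 2 mostly differed from the reference in other ways than replicates 1 and 3 did. In the 16-array fit, which leaves out MEA replicates 1 and 3 of day 5 and assumes that the lone array varies like the other groups, 913 probe sets (6.69%) passed, 461 (3.38%) higher and 452 (3.31%) lower. It says that this 1 array lay beyond the pooled spread, and has no replicate check. Of those 913, 313 (34.3%) lay on the same side of the reference mean in replicates 1 and 3. The measured genes of ABA, cold and dehydration were the list of 3 or more measured genes with the largest median in replicate 2. Its medians were -0.54, 1.36 and -0.58 in the 3 arrays. For the EAA mean of day 5 minus the reference mean, the median of this list was 0.74. In that fit 6 of the 10 measured members were higher in replicate 2, 1 was lower, and 0 of 10 had MEA and reference groups apart.

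LEA4-5 (AT5G06760), a LEA protein that guards cells against water loss, read 4.97, 10.6 and 3.90 with MEA, 8.98, 6.0 and 7.78 in the reference and 10.7, 9.98 and 10.3 with EAA on day 5. Replicate 2 was above every reference array and within the range of the EAA arrays, and replicates 1 and 3 were below every reference array. It differed from the reference mean by 2.99 (SE 0.72, adjusted p = 0.0239, limma on 16 arrays). DI21, a drought-induced gene, read 6.23, 9.82 and 4.84 against 7.46, 6.0 and 6.45 in the reference and 8.65, 9.02 and 8.29 with EAA. The aldehyde dehydrogenase gene ALDH7B4 read 10.2, 12.7 and 9.59 against 11.8, 10.7 and 11.7 and 12.5, 12.4 and 12.1. For both, replicate 2 exceeded all arrays of the reference and of EAA. LTI30, a dehydrin gene of cold and ABA responses, read 10.5, 12.2 and 10.8 against 11.3, 9.81 and 10.7, with EAA at 11.5, 11.4 and 11.1. LEA18 read 3.10, 6.25 and 3.31 against 5.08, 3.54 and 3.61 and AtLEA4-1 3.53, 5.74 and 3.46 against 4.21, 4.01 and 4.68. These 6 genes passed for replicate 2, with adjusted p-values of 0.00149 for DI21 to 0.0309 for LEA18 (limma). COR15B, which shields chloroplast membranes in the cold, went the other way, at 10.9, 6.92 and 11.3 against 9.15, 8.17 and 9.08, with replicate 2 at -1.88 from the reference mean (SE 0.30, adjusted p = 0.00256, limma). Its relative COR15A read 11.9, 12.1 and 12.2 against 12.2, 11.04 and 11.7, and did not pass. The dehydrin gene COR47 and HVA22C did not pass either, at -0.18 and -0.73 in replicate 2. Reference replicate 2 was the lowest reference array for 9 of the 10 members, all but HVA22C, and it also lay lowest of the reference arrays on the time axis. All members other than LTI30, COR15A, HVA22C and DI21 were chosen after their values were seen. DI21 was named for its high value in replicate 2, so its pass there is a description.

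**Figure D4:**
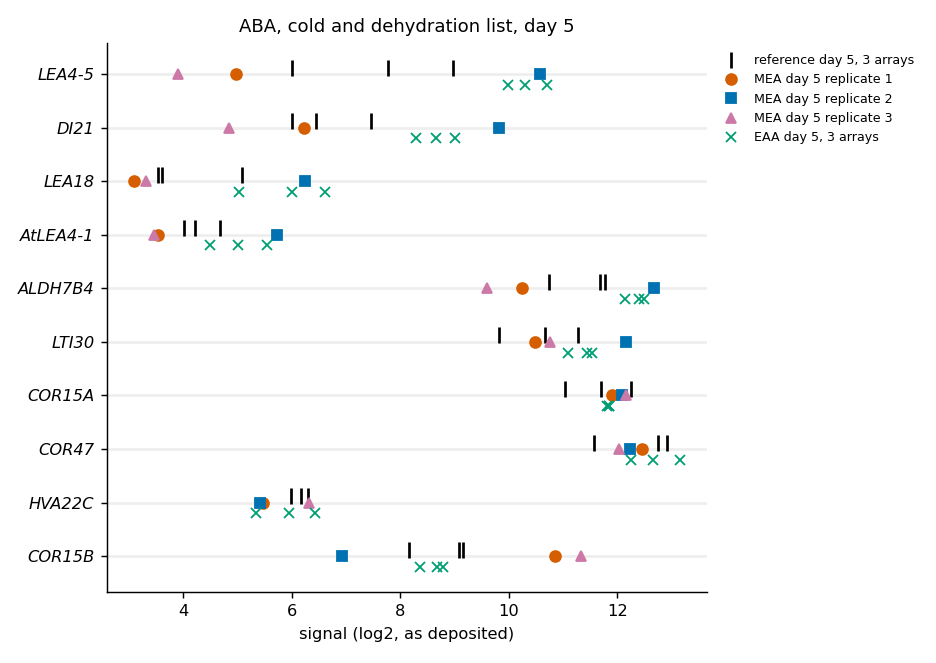
Signal (log2, horizontal axis) of the 10 measured genes of the ABA, cold and dehydration list on day 5; black ticks are reference arrays, coloured symbols MEA arrays and green crosses EAA arrays. MEA replicate 2 lies right of all reference arrays in the upper 6 rows, LEA4-5 at 10.6 among them, and left of them for COR15B at 6.92.

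Several other genes were highest in replicate 2. APL4 (AT2G21590), another large subunit of ADP-glucose pyrophosphorylase, read 3.41, 7.66 and 4.38 with MEA, 4.50, 3.64 and 3.76 in the reference and 6.90, 6.40 and 5.49 with EAA. CHAT, which makes the leaf volatile hexenyl acetate, read 3.82, 7.16 and 3.59 against 4.60, 3.88 and 4.32 and 6.59, 4.84 and 5.53 with EAA. EXLB1, an expansin-like gene, read 5.87, 9.86 and 6.39 against 7.58, 7.22 and 7.64 and 8.86, 9.32 and 8.56 with EAA. In these 3 genes replicate 2 was above every array of both other groups on day 5, by 3.69, 2.89 and 2.38 over the reference mean. The 3 genes were named for their high values in replicate 2, so these values are a description. The reference mean of APL4 was under 4.006. The alpha-amylase gene AMY1 read 7.29, 8.25 and 5.98 against 6.50, 6.43 and 5.82, with replicates 1 and 2 above every reference array. With EAA it read 5.91, 7.03 and 6.66, which overlapped the reference. SAG29, a SWEET family gene of senescing leaves, read 6.61, 11.1 and 5.13 against 9.93, 7.85 and 7.33. Replicates 1 and 3 were below and replicate 2 above every reference array. The EAA arrays of SAG29, at 10.7, 10.4 and 10.6, were also above every reference array. UGT85A5 read 5.79, 7.41 and 5.37 against 6.03, 6.03 and 6.16. Its EAA arrays read 6.91, 6.89 and 6.44, also above every reference array. UGT85A5 was chosen after its values were seen. Low in replicate 2 was AR781, at 8.71, 4.36 and 7.19 against 6.18, 5.83 and 6.57. So was IQD24, of the calmodulin-binding IQD family, at 6.79, 6.21 and 7.17 against 7.27, 7.35 and 7.38. The flavonol rhamnosyltransferase gene UGT78D1 was a further one, at 7.16, 6.36 and 7.36 against 7.49, 7.54 and 7.40. With EAA, IQD24 read 6.27, 6.42 and 6.64 and UGT78D1 6.31, 7.25 and 6.74, also below every reference array. AR781 read 4.66, 6.60 and 4.75 with EAA, on both sides of the reference.

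The defence genes PDF1.2, PDF1.2b and OSM34 were named for their high values in MEA replicate 1, so these values are a description. PDF1.2 (AT5G44420), a defensin induced by jasmonate with ethylene, read 9.0, 3.31 and 6.38 with MEA and 3.83, 3.55 and 3.54 in the reference. OSM34, an osmotin-like protein, read 9.38, 3.24 and 3.64 against 3.59, 3.66 and 3.31. PDF1.2b read 10.1, 4.07 and 5.80 against 4.23, 4.27 and 3.98 on a probe set marked as shared between related sequences, so its value is uncertain. Replicate 1 was the highest of the 6 arrays in all 3 genes, replicate 3 was above every reference array for the 2 defensins only, and replicate 2 lay within or below the reference range. The mean differences of 2.59 (SE 1.29) for PDF1.2 and 1.90 (SE 1.56) for OSM34 are means over unlike arrays. On day 1 PDF1.2 read 5.84 ± 1.06 with MEA and 4.62 ± 0.63 in the reference (SD, n = 3 each). The reference means of PDF1.2 and OSM34 on day 5 were under 4.006, so sizes are uncertain. Over the 11 measured genes of jasmonate, salicylate and defence the medians were 1.60, -0.26 and 0.17. JMT of the same list was below every reference array in replicate 1.

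Flavonoid genes did not share a pattern over all 3 MEA arrays, and their list medians were -1.41, 0.45 and -0.24. UGT78D2, a flavonol and anthocyanin glucosyltransferase, read 7.70, 9.26 and 8.09 with MEA against 9.71, 9.07 and 9.11. CHIL, a helper of chalcone isomerase, read 4.75, 6.02 and 6.22 against 7.31, 6.32 and 6.13. DFR, which commits the pathway to anthocyanins, read 6.37, 9.16 and 7.93 against 9.33, 6.71 and 7.83, and UF3GT, an anthocyanin xylosyltransferase, 6.50, 9.03 and 7.06 against 9.02, 6.49 and 7.72. Replicate 1 was the lowest MEA array for UGT78D2, CHIL, DFR and UF3GT, though not for UGT78D1. It was below every reference array for UGT78D2, CHIL and DFR. For DFR and UF3GT the reference arrays alone span more than any MEA array departs from their mean. Of 6 measured flavonoid genes UGT78D1 was the 1 with groups apart, beside 16.6% over all probe sets. Its replicate 2 was lowest and its reference arrays were close together. DFR and UF3GT were chosen after their values were seen.

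Across the gene lists as a whole the share of genes with groups apart was no higher than over all probe sets. Of 347 measured genes in the 42 lists 50 had groups that did not overlap (14.4%), beside 16.6% over all probe sets tested. The plot of list medians shows replicates 1 and 3 above 0 and replicate 2 below it for chlorophyll synthesis, the photosystems, tubulins and actins, beta-glucosidases and serine carboxypeptidase-like genes. The same held for antioxidant, chloroplast-encoded, wall polysaccharide and jasmonate, salicylate and defence genes. The split was reversed for ABA, cold and dehydration (-0.54, 1.36 and -0.58), chaperones (-1.33, 0.13 and -0.65) and flavonoid genes (-1.41, 0.45 and -0.24). Sugar transport and sucrose metabolism lay below 0 in all 3 arrays, at -0.79, -0.29 and -0.83. With EAA on day 5 the median of that list was -0.37 from the reference. Also below 0 in all 3 arrays were glutathione transferases, at -0.13, -0.69 and -0.02, and UDP-glycosyltransferases, at -0.09, -0.04 and -0.24. Ubiquitin ligation was so too, at -0.11, -0.03 and -0.36.

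**Figure D5:**
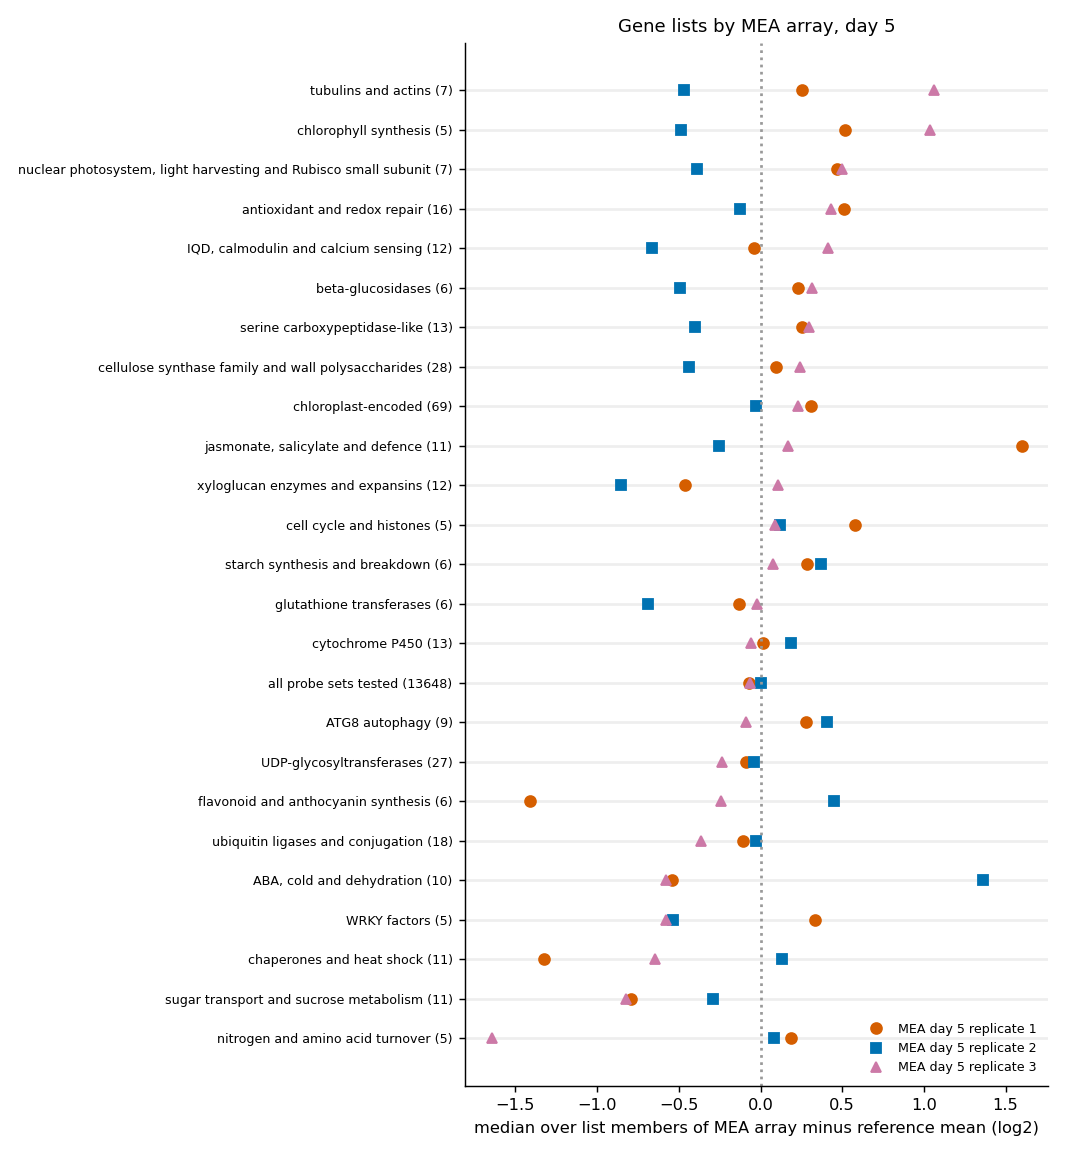
Median over the measured members of each list of the difference between 1 MEA array and the reference mean (log2, horizontal axis), for lists with 5 or more measured members (number in brackets) and for all 13648 probe sets tested; symbols are the 3 MEA arrays. Replicate 2 stands alone at 1.36 for ABA, cold and dehydration, and replicate 1 at 1.60 for jasmonate, salicylate and defence.

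MEA was also set against its sub-fraction EAA on day 5, and its effect on day 5 against that on day 1. Against EAA 0 of 13648 probe sets passed (0.0%, smallest adjusted p = 0.551, 1148 at an unadjusted p under 0.05, limma). Without MEA replicate 2, 3080 passed. By mean absolute distance over all probe sets, replicate 2 was 0.262 from the EAA group of day 5 and 0.361 from the reference of day 5, and replicates 1 and 3 were 0.356 and 0.306 from MEA on day 1 and 0.545 and 0.587 from the reference of day 5. The effect of MEA on day 5 minus that on day 1 gave 0 calls of 13648 (0.0%, smallest adjusted p = 0.0829, 1480 at an unadjusted p under 0.05), and 2922 without MEA replicate 2 of day 5. The 2 comparisons share the MEA day 5 arrays with the one above, so their counts are no separate support. These p-values that miss the threshold do not show that MEA acted like the reference or like EAA: 3 arrays with the spread given above limit the precision.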

How the data were processed

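Leaf RNA of 6 groups of 3 samples was hybridised to 18 Affymetrix arrays, from 10 µg of total RNA each per the labels' protocols. The authors deposited 1 table of log2 signals, as judged from its values; the submitters' processing notes name MAS5, with no version. How the values were normalized is not given in the sources used. Values were used as deposited. Of 22810 probe sets 64 were controls, and 13648 had a mean over 18 arrays at or above the 40th percentile of the others (4.006) and were tested. In the platform annotation 13513 probe sets had 1 gene, 503 several and 8794 are unnamed here; 13436 matched RefSeq (TAIR10.1), which gave 1551 a symbol.

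The comparison was fitted on its 6 arrays with limma 3.58.1 in R 4.3.3 (lmFit, eBayes with an intensity trend; Benjamini-Hochberg over 13648, threshold 0.05), without a block. The model was tested on simulated data. MEA against EAA (6 arrays) and day 5 against day 1 (12 arrays) were fitted alike. Genes named are the 10 highest and 10 lowest mean differences, up to 3 members a list with the smallest p, and the 5 farthest outside the reference range on each side per MEA array; some are left out, and others are marked as chosen after their values were seen. Members and lists were chosen with earlier results of these data known. Of the list members, 8 were left out because the symbol belonged to another gene. Alternatives changed scaling, filter, spread model, block and arrays. Tables and plots used Python 3.11.15, pandas 2.3.3 and matplotlib 3.10.9. Sequences were not used here.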

Additional observations from a re-analysis of the deposited data

Results flagged for a closer look

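Control probe sets lie outside the gene measurements and were higher in some MEA arrays than in any reference array of day 5 or any array of day 1. For actin the signal at the 3' end minus that at the 5' end was 2.88 in MEA replicate 1 and 2.30 in replicate 3, against at most 2.03 in those arrays. For GAPDH it was 1.06 in replicate 1, against at most 0.498. On the older GAPDH pair it was 2.11 in replicate 1 and 1.35 in replicate 3, against at most 1.31, and on the older ubiquitin pair 1.90 and 2.02, against at most 1.70. Replicate 2 was not above the reference in any pair. EAA arrays of day 5 reached 2.78 for actin and 2.24 for the older GAPDH pair.

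Among the genes named, 5 had all MEA arrays on 1 side of the reference on day 1 and on the other side on day 5. The genes were named by their day 5 values, and the share over all probe sets was not counted. The 5 are therefore a description. SWEET13 differed by 0.41 on day 1 and -1.02 on day 5, GIS by 0.47 and -1.56, RCA by 0.07 and -0.25, and IQD24 by 0.16 and -0.61. GH3.3 went from -0.74 to 1.77. The test of the change between the days did not pass for any of the 5, with adjusted p-values of 0.248 (GH3.3), 0.269 (GIS), 0.287 (SWEET13), 0.372 (IQD24) and 0.484 (RCA) by limma on 12 arrays.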

How the results depend on the processing

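The count of 0 calls against the reference held with median centring, quantile normalization, both other filters, no intensity trend and the replicate block. It was 1456 with a spread common to all 18 arrays, 159 with 1 weight per group and 913 for MEA replicate 2 alone. Leaving out 1 array at a time gave 0 to 2898 calls, 0 to 3080 against EAA and 0 to 2922 for the change between days; the highest count in each was without MEA day 5 replicate 2, and 3 calls for the change between days came without reference day 5 replicate 2. With 1 array less, probe sets with all MEA arrays above the reference numbered 1258 to 3181 and those below 1488 to 4363, where fewer arrays make groups apart more frequent; without the filter 1622 were above. The replicate block gave 0 calls in all 3 comparisons, with 1187, 989 and 1510 at an unadjusted p under 0.05 (limma). Deviations from the group means, not the signals, were correlated between same-numbered MEA and reference arrays. These correlations were -0.10, -0.39 and -0.26, so the numbers are not taken as pairs. Deviations of 3 arrays from their own mean sum to 0, which limits this check.

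Of 54 genes followed by their mean difference 0 passed on 6 arrays, 42 without MEA replicate 2, 35 with the common spread and 5 with weights. Over all 13648 probe sets, 2898 (21.2%) passed without MEA replicate 2, 1456 with the common spread and 159 (1.17%) with weights. Most of the 54 were named for large differences or small p in these same arrays, so their passes are no separate support. The direction turned in 16, by the construction of the fit with replicate 2 alone: PORB (-0.16), BGLU44 (-0.91), TUB5 (-1.46), DPE1 (-0.080), WLIM2a (-0.026), ACA.l (-0.30), COR27 (-0.47), GI (-0.49), TMT1 (-0.58), LHCB4.1 (-0.16), PDF1.2 (-0.33), PDF1.2b (-0.091), OSM34 (-0.28), AFR (0.18), Hsp70-2 (0.12) and APL3 (0.47). OSM34 also turned without MEA replicate 1, and ranged from -0.082 to 2.99 with 1 array left out. Of 30 genes followed in MEA replicate 2, COR47 and Fes1A changed sign under alternatives chosen after seeing the data. Without EAA day 5 replicate 1, also chosen after seeing the data, the array positions were 0.115, 1.08 and 0.029. The normalization of the deposited values is unknown, and where a group mean is under 4.006 the size of a difference is uncertain.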

Other observations

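A few redox, cytoskeleton and chromatin genes had groups apart. Of 16 measured antioxidant and redox repair genes 2 were above the reference, beside 7.29% over all probe sets: PRXIIF, a mitochondrial peroxiredoxin, at 8.60, 8.41 and 8.87 against 8.08, 8.32 and 7.99, and GRXC2, a glutaredoxin, at 11.2, 10.6 and 10.96 against 10.6, 10.5 and 10.4. The alpha-tubulin gene TUA1 was below, at 6.99, 7.40 and 7.16 against 7.48, 7.71 and 7.55, while TUB5 of the same list had replicates 1 and 3 far above. HTB1, a histone H2B gene, read 6.75, 7.32 and 6.92 against 7.47, 7.35 and 7.49, all MEA arrays lower. Neither these 4 genes nor any other passed on 6 arrays, with adjusted p-values of 0.409, 0.452, 0.447 and 0.441 (limma).

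Wall polysaccharide and ubiquitin genes held further members apart. TBL39 read 5.03, 4.64 and 4.77 against 4.48, 4.28 and 4.34, all MEA arrays higher, and GAUT15, of a family of galacturonosyltransferases of pectin, read 6.47, 6.62 and 6.56 against 6.94, 6.90 and 7.30, all lower. PUB25, close to PUB26, differed from the reference mean by -0.72, -0.22 and -1.57, lowest in replicate 3. Of 6 measured glutathione transferases and 13 measured cytochrome P450 genes 0 had groups apart, beside 16.6% over all probe sets.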
